A study of Homo sapiens with 12 samples.

Results

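The comparison described here is that of acid with neutral saline at the later of the study's times, 6 h. T84, a human colon carcinoma cell line in long use, forms a polarised, chloride-secreting epithelial sheet. The cells were grown to confluence in multiwell plates as the supplier recommends. Their culture medium was then exchanged for Hanks buffered saline set to pH 6.0 or pH 7.4, and after 6 h the cells were lysed in Trizol and libraries were made from the RNA by Illumina's usual method. The libraries were chosen by label: the 3 labelled pH 6.0 at 6 h (acid) against the 3 labelled pH 7.4 at 6 h (neutral), 6 of the 12 libraries of the series. The other 6 libraries are the same pair of salines at 3 h. All 4 groups share the loss of culture medium, and none of the 12 libraries is labelled as cells kept in medium, so the neutral libraries are a control for pH and not for the saline. T84 is a single tumour-derived line, and the labels name no batch, date or culture of origin. The p-values therefore measure only how far these libraries spread, and that spread may be technical.

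Epithelial cells meet acid outside the cell with sodium-proton exchangers, bicarbonate transporters and carbonic anhydrases that move or buffer protons, with monocarboxylate transporters that carry lactate together with a proton, and with the vacuolar proton pump that acidifies lysosomes. Receptors and channels that sense protons link outside pH to cyclic AMP, calcium and MAP kinase signals. Immediate early genes, such as those of the FOS, EGR and NR4A families, are switched on by such signals without new protein synthesis. Their products are transcription factors and phosphatases whose messages are short-lived.

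The 3 neutral libraries held 17463415, 18921141 and 16574741 counts and the 3 acid libraries 15413172, 20525403 and 15383041. Values below are CPM, the usual depth-normalised read count (here on TMM-scaled library totals), listed in the order of replicates 1 to 3. A log2 fold change is pH 6.0 over pH 7.4, with its standard error after the ± sign, and an adjusted p is that of edgeR's quasi-likelihood test with Benjamini-Hochberg adjustment over all 15630 genes that passed the low-count filter. A gene is said to have risen or fallen where its adjusted p is under 0.05. A rise or fall is thus a difference between the pH groups at one time and not a change over time. The summed level of 16 markers of colon epithelium was 12377 to 12517 CPM in the neutral and 13971 to 14939 CPM in the acid libraries. Markers of other cells were near the floor in all but 1 library (sums are over all markers found, on unscaled totals). Of the fibroblast markers 4 of 15 passed the filter, with a summed level of 8.45 to 34.4 CPM at pH 7.4 and 7.92 to 11.4 CPM at pH 6.0 (FAP and PDPN at 0). Neutral replicate 2 stood apart here: COL1A1 measured 0.233, 13.97 and 0.730 CPM at pH 7.4 against 0.543, 0.708 and 0.955 CPM at pH 6.0, and COL1A2 and COL3A1, which did not pass the filter, had 107 and 58 counts in that library against at most 4 in any other of 6 h. Without that library 6772 genes passed the pH test at 6 h, 6458 of them also called with it. Of the leukocyte markers 4 of 17 passed the filter (9.29 to 10.5 and 11.96 to 12.5 CPM, MS4A1 and CD68 at 0), and of the endothelial markers 4 of 10 (10.6 to 14.1 and 13.0 to 14.7 CPM, KDR at 0). In bulk RNA, fewer cells of a kind and less RNA per cell cannot be told apart.

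At 6 h, pH 6.0 changed 7342 of 15630 genes (47.0%). Of these, 3418 rose (21.9%) and 3924 fell (25.1%), and the change was mostly small. The median rise was 1.45-fold and the median fall 1.53-fold. At least 2-fold rises were seen for 640 genes (4.09%) and at least 2-fold falls for 830 (5.31%), at least 4-fold changes for 174 and 102, and at least 8-fold changes for 40 and 25. The CPM ranges of the 2 pH groups did not overlap for 8840 genes (56.6%), with the acid libraries above in 26.9% and below in 29.7%. Of the 7342 changed genes 7096 were among these, so non-overlap adds little to a call. It was also a condition of choice for the 25 largest rises and 25 largest falls named below. The median over all tested genes was -0.00076 on the log2 scale. Falls outnumbered rises in the whole set of libraries, but not when 1 acid library was left out (3372 rises and 3251 falls without replicate 1, 3315 and 3282 without replicate 2, and 3348 and 3236 without replicate 3). As a group, the genes that rose held 29.6% of the CPM of tested genes in the neutral libraries and 41.9% in the acid ones, and those that fell went from 32.8% to 21.8%. Because so many genes passed the test, counts of list members below are to be read against 21.9% higher and 25.1% lower among all genes. These shares depended on level. In the lowest of 10 classes by mean CPM 9.72% rose and 8.19% fell, and in the highest 37.0% and 30.1%. The background for lists of strongly expressed genes is therefore higher than that of all genes.

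**Figure D1:**
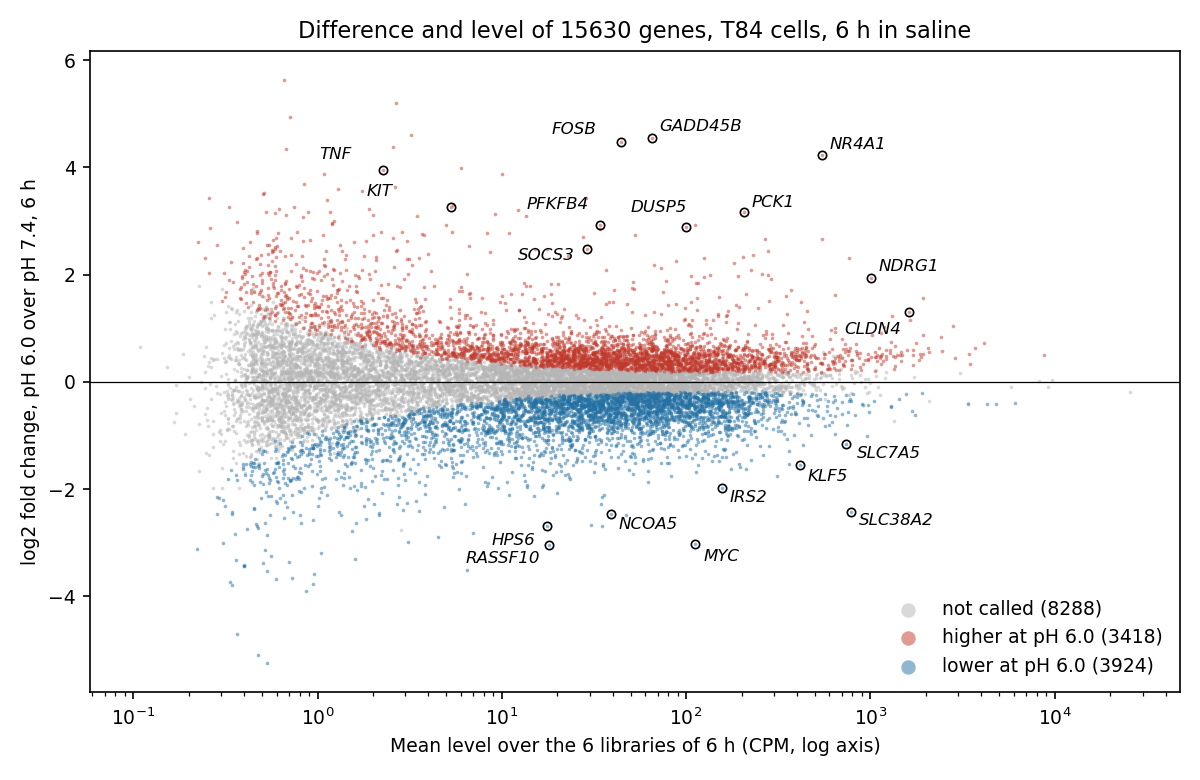
Each point is 1 of 15630 genes: its mean level over the 6 libraries of 6 h (CPM, log axis) against its log2 fold change, pH 6.0 over pH 7.4. Red points rose (3418), blue points fell (3924) and grey points did not pass the test (8288). The circled genes had large changes at low, middle and high levels.

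The direction of change went with gene length. Genes were split into 10 classes of equal size by the length recovered from the deposited values. In the 2 shortest classes (median lengths 618 and 1300 bases) 21.2% and 33.3% of the genes rose and 10.04% and 8.70% fell. In the longest class (median 7939 bases) 8.96% rose and 49.8% fell, with a median log2 change of -0.32. The same is seen in single libraries: the longest class took 18.1, 18.3 and 20.4% of the CPM in the neutral libraries and 15.1, 15.1 and 14.7% in the acid libraries. The groups did not overlap in this share. With a correction for length and GC content in each library, the class medians ran from -0.031 to 0.12. The labels give no measure of RNA quality, and its part in this trend was not tested. Gene groups whose majority changes with the correction are marked below.

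**Figure D2:**
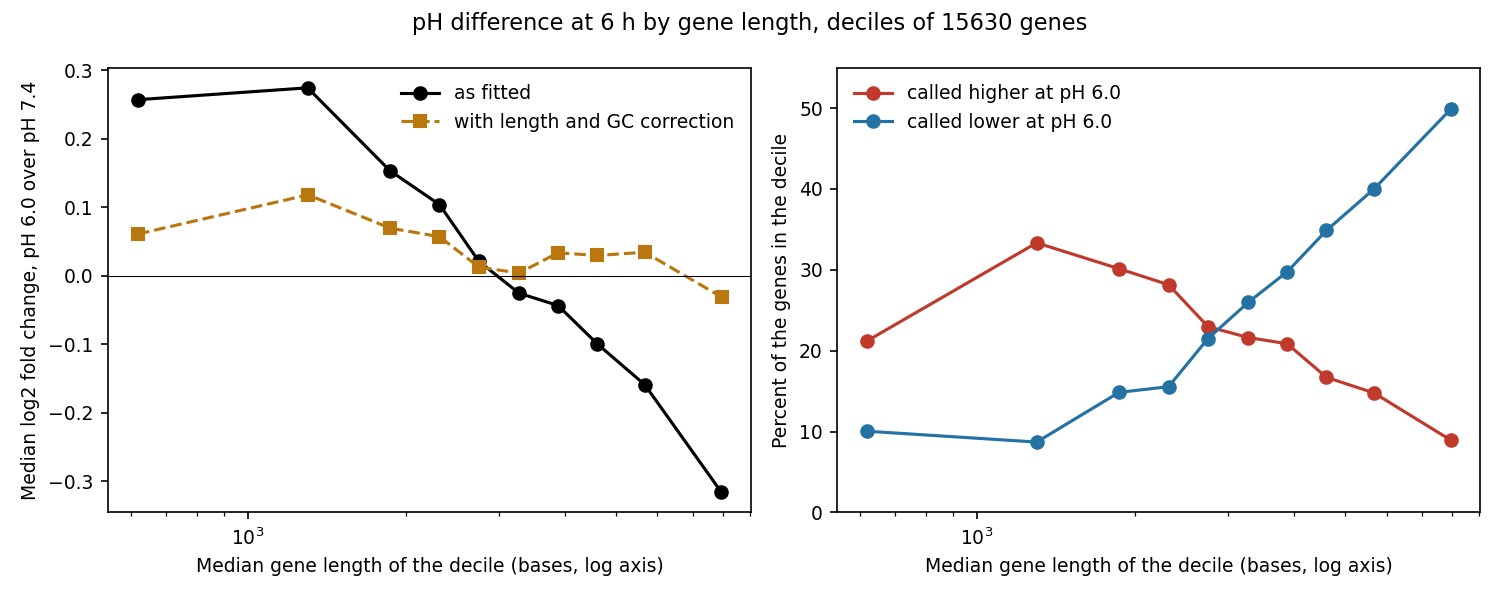
Left, the median log2 fold change of 10 classes of genes by length (bases, log axis), as fitted (black) and with the correction for length and GC content (orange, dashed). Right, the percentage of each class that rose (red) or fell (blue): 49.8% of the longest class fell, and 8.96% rose.

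Among the 25 largest rises at 6 h, beside GADD45B (ENSG00000099860; log2 4.55 ± 0.12, adjusted p = 1.30e-17) and the AP-1 gene FOSB (ENSG00000125740; log2 4.48 ± 0.17), were genes of 3 MAP kinase phosphatases, enzymes that switch off ERK, JNK and p38. The phosphatase gene DUSP5 (ENSG00000138166) stood at 22.2, 25.2 and 23.5 CPM in the neutral libraries and 165, 197 and 166 CPM in the acid libraries. Every acid library was far above every neutral one, a 7.44-fold difference (log2 2.89 ± 0.10, adjusted p = 1.13e-15). Its relatives DUSP1 (24.7, 28.3 and 25.4 CPM at pH 7.4 against 188, 213 and 194 CPM at pH 6.0; log2 2.92 ± 0.10) and DUSP2 (log2 3.43 ± 0.14) rose by similar amounts. The ribonuclease gene ZC3H12A (ENSG00000163874), whose product degrades inflammatory mRNAs, measured 8.72, 8.06 and 8.15 CPM in the neutral libraries and 53.7, 64.5 and 61.3 CPM in the acid libraries (log2 2.85 ± 0.12, adjusted p = 3.20e-14). SOCS3 (ENSG00000184557), an inhibitor of JAK-STAT signals, measured 8.84, 9.02 and 8.58 CPM in the neutral libraries and 45.04, 53.5 and 49.2 CPM in the acid libraries (log2 2.48 ± 0.11, adjusted p = 3.65e-14). In both genes the libraries of a group lay close together, and the groups were well apart. The surface protein gene CD83 rose from 2.78 ± 0.180 to 19.0 ± 2.40 CPM (SD, n = 3; log2 2.78 ± 0.18). PFKFB4 (ENSG00000114268), a bifunctional enzyme that sets the level of an allosteric activator of glycolysis, measured 6.34, 8.92 and 8.395 CPM in the neutral libraries and 50.1, 51.5 and 79.2 CPM in the acid libraries. Acid replicate 3 stood above the other two, and all 3 stood above the neutral libraries (log2 2.93 ± 0.23, adjusted p = 4.58e-07).

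Over the whole list of EGR, IER and NR4A immediate early genes, 16 of 18 tested members rose and 2 fell, at a median log2 change of 1.70, against -0.00076 for all genes. The libraries of the 2 groups did not overlap for any of the 18, and for 56.6% of all genes. All 18 had passed the test, so the lack of overlap adds little to their calls. The rises ran from IER5 (log2 0.52 ± 0.10) to NR4A1 (log2 4.24 ± 0.10). The nuclear receptor gene NR4A3 rose from 1.00 ± 0.528 to 9.93 ± 1.78 CPM and its relative NR4A2 from 6.04 ± 0.726 to 20.9 ± 2.97 CPM (SD, n = 3). SIK1, a kinase that restrains CREB coactivators, measured 23.9, 24.7 and 24.8 CPM at pH 7.4 against 97.2, 127 and 107 CPM at pH 6.0 (log2 2.17 ± 0.10, adjusted p = 1.11e-13). The matricellular protein genes CCN1 (log2 1.61 ± 0.13) and CCN2 (log2 2.25 ± 0.11) rose, as did SRF (log2 0.87 ± 0.079), the transcription factor of many immediate early genes. The members that fell, NAB1 and NAB2 (log2 -0.57 ± 0.11), encode corepressors of EGR proteins. NAB1 lost its call with the length and GC correction and without neutral replicate 3, acid replicate 2 or acid replicate 3. In the AP-1 list 7 of 13 tested genes rose and 5 fell. FOS (101, 100.2 and 106 CPM at pH 7.4 against 369.8, 455 and 423 CPM at pH 6.0), JUNB (log2 1.71 ± 0.10), ATF3 (log2 1.95 ± 0.087), FOSL1 (log2 1.87 ± 0.12), MAFF (log2 1.01 ± 0.079) and JUN (log2 0.72 ± 0.12) rose besides FOSB. FOSL2 (log2 -0.43 ± 0.088), JDP2 (log2 -0.63 ± 0.093), a repressor that binds AP-1 sites, and the small MAF gene MAFG (log2 -0.66 ± 0.081) fell. Without acid replicate 1, the falls in this list were 3. Reads of JUNB and of the overlapping HOOK2 could be counted for either gene.

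Chaperone and sterol genes were among the 25 largest rises as well. HSPA1B, an inducible HSP70 gene, measured 136, 155 and 157 CPM in the neutral libraries and 927, 879.7 and 1034 CPM in the acid libraries (log2 2.66 ± 0.11, adjusted p = 9.79e-15), and its near-identical copy HSPA1A measured 1.63, 3.28 and 1.40 CPM at pH 7.4 against 13.6, 16.1 and 13.9 CPM at pH 6.0. All acid libraries exceeded all neutral ones, but reads of the copies can be split between them in counting, so the difference in level between HSPA1A and HSPA1B is uncertain. The chaperone genes DNAJA4 (log2 2.53 ± 0.20) and HSPE1 (log2 2.48 ± 0.13) rose too. HSPE1 overlaps HSPD1 on the other strand. Among the sterol genes, INSIG1 (ENSG00000186480), whose product retains the sterol sensor of the SREBP factors in the endoplasmic reticulum, measured 68.4, 78.3 and 71.5 CPM in the neutral libraries and 445, 440.1 and 505 CPM in the acid libraries (log2 2.67 ± 0.092, adjusted p = 9.71e-16). HMGCS1, the synthase ahead of the rate-limiting step of cholesterol synthesis, measured 83.7, 89.9 and 88.4 CPM at pH 7.4 against 494, 436 and 486 CPM at pH 6.0 (log2 2.43 ± 0.084). FDPS, which makes farnesyl diphosphate, rose by a log2 of 2.74 ± 0.13, and RUSC1-AS1, which overlaps it on the other strand, by 2.70 ± 0.14. Whether counting used strand is not given in the sources used here, so these 2 changes are not separate observations. The host transcript of a microRNA pair, MIR222HG, rose from 4.58 ± 0.495 to 25.7 ± 3.25 CPM (SD, n = 3).

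Promoter letters are shown for 5 genes of these lists whose window holds a searched motif, because they share a motif but moved in opposite directions (DUSP1 and LDHA rose, and FRAT1, a Wnt pathway gene, fell at log2 -2.81, each with a cyclic AMP response element, TGACGTCA) or are a copied pair that moved together (HSPA1A and HSPA1B, with the core of a heat shock element, GAANNTTC). Each is the stretch of 250 bases before the RefSeq start site on GRCh38.p14, read 5′ to 3′ on the gene's strand, with capitals at the motif matches, which include the E-box CACGTG. The windows are chr5:172771196-172771445 on the minus strand for DUSP1, chr11:18394313-18394562 on the plus strand for LDHA, chr10:97319021-97319270 on the plus strand for FRAT1, chr6:31815293-31815542 on the plus strand for HSPA1A and chr6:31827488-31827737 on the plus strand for HSPA1B.
DUSP1: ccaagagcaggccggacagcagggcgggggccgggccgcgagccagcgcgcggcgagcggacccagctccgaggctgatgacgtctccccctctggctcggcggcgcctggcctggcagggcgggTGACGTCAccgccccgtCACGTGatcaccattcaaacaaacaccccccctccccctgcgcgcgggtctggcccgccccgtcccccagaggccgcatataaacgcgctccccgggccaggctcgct
LDHA: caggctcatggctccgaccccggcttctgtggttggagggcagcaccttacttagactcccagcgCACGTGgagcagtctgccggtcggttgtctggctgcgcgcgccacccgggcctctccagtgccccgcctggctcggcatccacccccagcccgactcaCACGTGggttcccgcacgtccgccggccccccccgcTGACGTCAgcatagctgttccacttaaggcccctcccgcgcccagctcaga
FRAT1: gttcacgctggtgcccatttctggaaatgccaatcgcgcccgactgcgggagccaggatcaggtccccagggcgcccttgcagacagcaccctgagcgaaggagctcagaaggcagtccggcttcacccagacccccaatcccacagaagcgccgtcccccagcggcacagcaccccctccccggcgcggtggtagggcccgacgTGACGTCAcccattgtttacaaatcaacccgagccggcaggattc
HSPA1A: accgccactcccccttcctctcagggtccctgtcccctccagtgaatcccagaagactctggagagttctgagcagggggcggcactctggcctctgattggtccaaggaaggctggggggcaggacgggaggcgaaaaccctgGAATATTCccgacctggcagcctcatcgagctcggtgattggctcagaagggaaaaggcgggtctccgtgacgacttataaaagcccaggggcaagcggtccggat
HSPA1B: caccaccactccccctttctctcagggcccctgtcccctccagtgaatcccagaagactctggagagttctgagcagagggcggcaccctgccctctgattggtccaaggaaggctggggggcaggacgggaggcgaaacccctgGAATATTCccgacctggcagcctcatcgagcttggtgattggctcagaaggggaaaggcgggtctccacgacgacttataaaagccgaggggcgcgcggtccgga
The first base of the cyclic AMP response element lay 125 bases before the start in DUSP1, 51 in LDHA and 45 in FRAT1. The heat shock core lay 106 bases before it in HSPA1A and 105 in HSPA1B.

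Motif matches were counted on both strands over the promoters of genes that changed at least 2-fold. A window was found for 309 of the 640 that rose and 537 of the 830 that fell. The cyclic AMP response element was in 3.24% of the first and 2.42% of the second, against 2.87% of the 10908 windows of tested genes and 1.77% of the 27305 windows in the table. The heat shock core was in 7.12% and 3.35% (4.02% of tested genes), and the AP-1 element TGANTCA in 6.80% and 4.47% (4.04%). The E-box was in 10.03% and 6.70% (8.77%). The sterol element TCACNCCAC was in 1.62% and 0.745% (0.853%), and the amino acid response element TGATGCAA in 0.647% and 0.745% (0.449%). A match is a string of letters and not a shown binding site. These shares are descriptions without a test.

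Of the 25 largest falls, beside MYC (ENSG00000136997; log2 -3.03 ± 0.10), the forkhead gene FOXQ1 (log2 -2.70 ± 0.12) and the Wnt feedback gene AXIN2 (log2 -2.66 ± 0.11), the insulin receptor substrate gene IRS2 (ENSG00000185950), which couples insulin and IGF receptors to PI3 kinase, measured 224, 264 and 266 CPM in the neutral libraries and 64.3, 62.8 and 63.1 CPM in the acid libraries. The groups were far apart, a 3.96-fold fall (log2 -1.99 ± 0.10, adjusted p = 4.23e-13). At 3 h IRS2 stood at 121 ± 16.9 CPM at pH 7.4 and 72.6 ± 6.88 CPM at pH 6.0 (SD, n = 3 each). Its neutral mean was thus lower at 3 h than at 6 h, a difference between times that was not tested. SPRY1 (ENSG00000164056), an inhibitor of receptor tyrosine kinase signals, measured 33.1, 32.2 and 30.7 CPM in the neutral libraries and 6.59, 7.63 and 8.67 CPM in the acid libraries (log2 -2.07 ± 0.13, adjusted p = 1.52e-11). KIF21B, a kinesin gene, measured 52.3, 60.4 and 61.6 CPM at pH 7.4 against 12.02, 16.4 and 11.7 CPM at pH 6.0. The zinc finger gene ZNF281 measured 24.3, 24.4 and 24.3 CPM at pH 7.4 against 7.40, 5.71 and 3.41 CPM at pH 6.0, and the semaphorin gene SEMA6D 17.9, 17.0 and 18.4 CPM at pH 7.4 against 3.60, 4.50 and 4.09 CPM at pH 6.0. In each the highest acid library was below the lowest neutral one, as the choice of these falls required. The log2 changes were -2.11, -2.14 and -2.12 in that order. CDC42EP2, an effector of the GTPase CDC42, changed by a log2 of -2.14 ± 0.11, LRRC31 by -1.97 ± 0.17 and the zinc finger genes ZBTB9, ZBTB6 and ZNF398 by -1.97 ± 0.24, -1.96 ± 0.13 and -1.92 ± 0.13.

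By difference in CPM, which favours long and strongly expressed messages, the largest rises included EEF1A1, ACTB, LDHA, KRT8, PTMA, CLDN4, GAPDH, NDRG1 and MCL1. The tight junction gene CLDN4 measured 906, 983 and 903 CPM in the neutral libraries and 2065, 2434 and 2394 CPM in the acid libraries. Lactate dehydrogenase gene LDHA measured 1974, 1860.2 and 1712 CPM in the neutral libraries and 3949, 3592 and 3825 CPM in the acid libraries. In both the acid libraries lay above the neutral ones, with log2 changes of 1.30 ± 0.090 for CLDN4 and 1.04 ± 0.087 for LDHA. NDRG1, a stress- and hypoxia-responsive gene, rose from 416 ± 15.6 to 1601 ± 220.1 CPM (SD, n = 3; log2 1.95 ± 0.11), and ACTB, cytoplasmic actin, by a log2 of 0.72 ± 0.10. The largest falls in CPM included the mitochondrially encoded MT-CYB, MT-ND1, MT-ND2 and MT-ND5, and SLC38A2, SLC38A1 and SLC7A5, which are amino acid transporter genes, and PLEC and DSP, whose products tie keratin filaments to junctions. The falls of the mitochondrial genes were of -0.39 to -0.41 on the log2 scale, and each lost its call without 1 or more of the libraries: MT-CYB without neutral replicate 1 (adjusted p = 0.0521) or acid replicate 3 (adjusted p = 0.0734), MT-ND1 and MT-ND2 without acid replicate 1 (adjusted p = 0.106 and 0.0782), and MT-ND5 without neutral replicate 3 (adjusted p = 0.0918), acid replicate 2 (adjusted p = 0.0760) or acid replicate 3 (adjusted p = 0.0504). PLEC (log2 -0.54 ± 0.12) and DSP (log2 -0.47 ± 0.11) lost theirs with the correction for length and GC content (adjusted p = 0.117 and 0.0567).

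Of the machinery that handles acid, single genes moved in both directions. Among the sodium-proton exchangers (SLC9), which export protons, and their partner proteins, 2 of 13 tested genes rose and 3 fell, at a median log2 change of 0.07. SLC9A2, an apical exchanger, measured 77.7, 75.5 and 77.3 CPM in the neutral libraries and 97.8, 99.9 and 105 CPM in the acid libraries, a rise without overlap of the groups (log2 0.39 ± 0.10, adjusted p = 0.0025). SLC9A8, an exchanger of the Golgi and the apical membrane, fell from 49.3 ± 1.55 to 29.3 ± 2.28 CPM (SD, n = 3; log2 -0.75 ± 0.094). SLC9A3, the main absorptive exchanger of the gut, measured 22.3, 24.9 and 23.8 CPM in the neutral libraries and 20.1, 26.2 and 24.0 CPM in the acid libraries. Its groups overlapped (log2 -0.011 ± 0.20, adjusted p = 0.972), and it shares reads with overlapping genes. The weakly expressed SLC9B2 rose (log2 0.77 ± 0.26) and SLC9A5 fell (log2 -0.84 ± 0.33). SLC9B2 lost its call without neutral replicate 3 (adjusted p = 0.0577) or acid replicate 2 (adjusted p = 0.0517). The CPM ranges of SLC9A5 overlapped between the groups, and it lost its call when any library but neutral replicate 1 was left out (adjusted p from 0.0563 to 0.173). It also lost its call with the length and GC correction (adjusted p = 0.0721) and with DESeq2 (adjusted p = 0.0676). DESeq2 called 2 rises and 2 falls in the list. Without neutral replicate 2 or acid replicate 1 the list had 3 rises and 2 falls.

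Of the bicarbonate and anion transporters of the SLC4 and SLC26 families, 1 of 12 tested genes rose and 4 fell (median -0.30). The sulfate transporter gene SLC26A2 (ENSG00000155850) measured 97.4, 82.0 and 110.2 CPM in the neutral libraries and 243, 216 and 265 CPM in the acid libraries, a 2.50-fold rise in which every acid library exceeded every neutral one (log2 1.32 ± 0.17, adjusted p = 2.64e-05). SLC4A2, the basolateral chloride-bicarbonate exchanger AE2, fell, at 145, 165 and 155 CPM at pH 7.4 against 107, 115 and 115 CPM at pH 6.0 (log2 -0.46 ± 0.081, adjusted p = 7.15e-05). SLC26A3 (DRA), the apical chloride-bicarbonate exchanger of the colon, measured 22.7, 20.3 and 25.6 CPM at pH 7.4 against 16.0, 13.5 and 10.6 CPM at pH 6.0. It changed by a log2 of -0.77 ± 0.20 (adjusted p = 0.00394). SLC26A1, a sulfate exchanger, fell too (log2 -0.92 ± 0.17), as did SLC26A11 (log2 -0.58 ± 0.19), whose call was lost without neutral replicate 3 (adjusted p = 0.0527) or acid replicate 1 (adjusted p = 0.127). SLC4A7, which imports sodium and bicarbonate, measured 20.5, 19.7 and 24.6 CPM at pH 7.4 against 26.9, 27.4 and 23.8 CPM at pH 6.0 and did not pass (adjusted p = 0.0841), but did without neutral replicate 3 (log2 0.37, adjusted p = 0.0360), without acid replicate 3 (log2 0.36, adjusted p = 0.0469) and with the length and GC correction (log2 0.52, adjusted p = 3.81e-04). SLC26A6 measured 92.7, 91.5 and 91.5 CPM at pH 7.4 against 69.8, 73.2 and 95.2 CPM at pH 6.0. Its acid replicate 3 lay above the neutral ones and the other two below them, so the gene did not pass (log2 -0.21 ± 0.10, adjusted p = 0.0842). Without that library it fell (log2 -0.33, adjusted p = 0.00788).

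Carbonic anhydrases interconvert carbon dioxide and bicarbonate. Of 9 tested genes 3 rose and none fell by edgeR (median 0.20; none was lower at an unadjusted p under 0.05, and DESeq2 called none). CA2, the fast cytosolic form, measured 9.59, 10.3 and 9.73 CPM in the neutral libraries and 13.9, 13.7 and 15.01 CPM in the acid libraries (log2 0.52 ± 0.13, adjusted p = 0.00197), and CA12, a form with its active site outside the cell, measured 304, 306 and 316 CPM in the neutral libraries and 381, 359 and 405 CPM in the acid libraries (log2 0.31 ± 0.074, adjusted p = 0.0017). The groups were apart in both. CA7 rose from a level near the floor (0, 0.215 and 0.122 CPM at pH 7.4 against 0.679, 0.607 and 0.955 CPM at pH 6.0). CA9, another surface form, measured 55.8, 63.6 and 58.6 CPM at pH 7.4 against 55.6, 54.1 and 68.0 CPM at pH 6.0 and did not pass (log2 -0.0054 ± 0.12, adjusted p = 0.977). Its acid replicate 3 lay above all others, and the sign of its change turned without either of the other two. CA9 overlaps ARHGEF39.

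Of the monocarboxylate transporter genes, with their chaperone basigin, 4 of 11 tested rose and 2 fell (median -0.01). SLC16A3 (ENSG00000141526), the transporter MCT4 that exports lactate from glycolytic cells, measured 21.5, 23.0 and 19.1 CPM in the neutral libraries and 57.9, 61.9 and 57.9 CPM in the acid libraries. All acid libraries were above all neutral ones, a 2.79-fold rise (log2 1.48 ± 0.11, adjusted p = 2.54e-10). SLC16A3 overlaps CSNK1D on the other strand. SLC16A1 (MCT1), which moves lactate and butyrate, measured 196, 179 and 186 CPM in the neutral libraries and 139, 126 and 122 CPM in the acid libraries, a 1.45-fold fall (log2 -0.53 ± 0.076, adjusted p = 5.40e-06). BSG, which brings both to the membrane, measured 645, 679.8 and 569 CPM at pH 7.4 against 743, 783 and 825 CPM at pH 6.0 (log2 0.31 ± 0.095, adjusted p = 0.00957). BSG lost its call without neutral replicate 3 (adjusted p = 0.0684). The orphan members SLC16A14 (log2 2.63 ± 0.39) and SLC16A9 (log2 1.18 ± 0.14) rose and SLC16A13 fell (log2 -0.53 ± 0.14).

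Most genes for proton sensors were scarcely expressed: 14 of 24 did not pass the low-count filter. The proton-sensing receptor genes GPR4, GPR65 and GPR132 had at most 8 counts in any library of 6 h, and the proton channel genes OTOP1, OTOP2, OTOP3 and HVCN1 at most 5. The acid-sensing channel gene ASIC1 measured 7.85, 8.81 and 11.01 CPM at pH 7.4 against 15.4, 15.2 and 13.9 CPM at pH 6.0 (log2 0.68 ± 0.13, adjusted p = 1.91e-04), and the potassium channel genes KCNK1 (log2 0.60 ± 0.10) and KCNK6 (log2 0.57 ± 0.12) rose. TRPM7, a channel with a kinase domain, measured 187, 186 and 205 CPM at pH 7.4 against 133, 121 and 122 CPM at pH 6.0 and fell without overlap (log2 -0.62 ± 0.088, adjusted p = 5.13e-06). PACC1, the proton-activated chloride channel, did not pass (log2 0.24 ± 0.25).

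**Figure D3:**
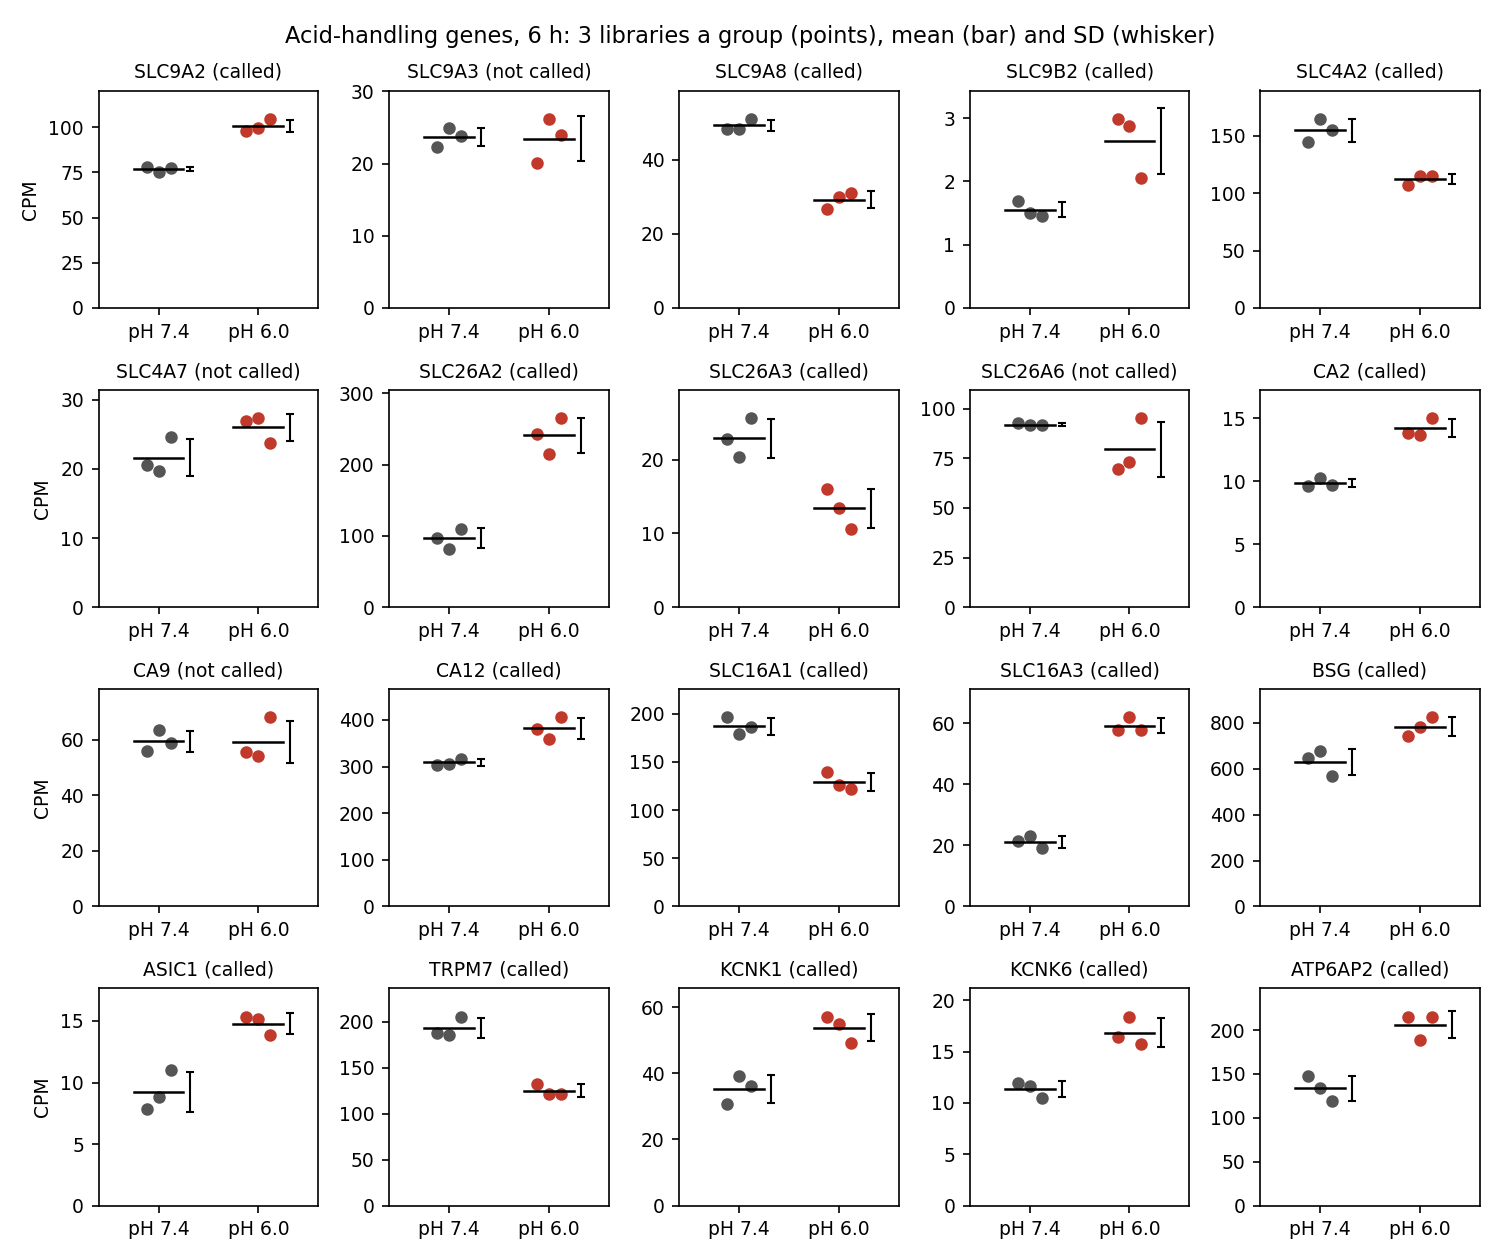
CPM of 20 acid-handling genes in the 3 neutral (grey) and 3 acid (red) libraries of 6 h, with the group mean (bar) and SD (whisker), and axes that start at 0. The acid libraries of SLC16A3 and SLC26A2 lie far above the neutral ones and those of SLC9A8 and TRPM7 below them, while the groups overlap in CA9 and SLC9A3.

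The vacuolar proton pump (V-ATPase) acidifies lysosomes and endosomes. Of 19 tested genes of its subunits 13 rose and 1 fell (median 0.35), and 12 rose and 1 fell with the correction for length and GC content. The accessory subunit gene ATP6AP2 measured 148, 134 and 119.7 CPM in the neutral libraries and 215, 188 and 215 CPM in the acid libraries (log2 0.62 ± 0.084, adjusted p = 2.68e-06), ATP6V0E1 116, 130.4 and 88.8 CPM at pH 7.4 against 177, 173 and 172 CPM at pH 6.0 (log2 0.64 ± 0.12, adjusted p = 4.33e-04) and ATP6V1E1 43.5, 46.4 and 40.1 CPM at pH 7.4 against 63.5, 60.9 and 62.2 CPM at pH 6.0 (log2 0.52 ± 0.092, adjusted p = 7.02e-05). In each the acid libraries were above the neutral ones. The member that fell, ATP6V0A2 (log2 -0.62 ± 0.086), encodes an isoform of the large membrane subunit used in the Golgi. The gastric-type proton pump genes ATP4A and ATP12A had at most 4 counts in any library of 6 h. Of 34 lysosomal genes 19 rose and 4 fell (median 0.26). The rises were of 1.14- to 1.55-fold and included the protease genes CTSC (log2 0.63 ± 0.093) and CTSH (log2 0.49 ± 0.075), the lipase gene LIPA (log2 0.61 ± 0.10), the glycosidase gene GLA (log2 0.62 ± 0.11) and the membrane protein gene LAMP1 (log2 0.44 ± 0.075). TFEB, the transcription factor that drives lysosomal genes, fell (from 23.4 ± 2.27 to 12.8 ± 2.01 CPM; SD, n = 3; log2 -0.86 ± 0.13), as did NPC1 (log2 -0.69 ± 0.084), which exports cholesterol from the lysosome, whereas TFE3 rose (log2 0.37 ± 0.074).

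Of 37 autophagy genes 6 rose and 12 fell (median 0.04). The members that fell included genes that start autophagy, among them the kinase ULK1 (84.5, 87.2 and 91.2 CPM at pH 7.4 against 43.8, 45.7 and 45.8 CPM at pH 6.0; log2 -0.96 ± 0.084), its partners RB1CC1 (log2 -0.92 ± 0.089) and ATG13 (log2 -0.68 ± 0.084) and the lipid transfer genes ATG2A (log2 -0.48 ± 0.085) and ATG2B (log2 -1.27 ± 0.12), the last overlapping GSKIP. The members that rose included genes of small ubiquitin-like proteins of the autophagosome and of mitophagy receptors: MAP1LC3B (log2 0.41 ± 0.079), GABARAPL2 (log2 0.52 ± 0.10), BNIP3 (192, 187 and 175 CPM at pH 7.4 against 338, 282 and 390.4 CPM at pH 6.0; log2 0.87 ± 0.094) and BNIP3L (log2 0.90 ± 0.086). BNIP3 and BNIP3L are also known hypoxia targets.

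T84 cells are a model of chloride secretion, in which SLC12A2 (NKCC1) brings chloride in at the basolateral side, the sodium pump and potassium channels keep the driving force, and CFTR lets chloride out at the apex. Of 23 tested genes 6 rose and 9 fell (median -0.10). With the length and GC correction 10 rose and 9 fell, so no majority is read from the list. SLC12A2 measured 992, 876 and 966 CPM in the neutral libraries and 1417, 1247 and 1279 CPM in the acid libraries (log2 0.48 ± 0.10, adjusted p = 6.03e-04) and CFTR 293, 262 and 276 CPM at pH 7.4 against 378, 327 and 383 CPM at pH 6.0 (log2 0.39 ± 0.10, adjusted p = 0.00307). Both rose without overlap. The sodium pump subunit genes ATP1B1 (log2 0.52 ± 0.071) and ATP1B3 (log2 0.41 ± 0.10) rose as well. The members that fell included genes of the calcium-activated route: the muscarinic receptor CHRM3 (44.9, 46.8 and 48.5 CPM at pH 7.4 against 29.6, 31.5 and 30.0 CPM at pH 6.0; log2 -0.62 ± 0.094), the chloride channels ANO1 (log2 -0.57 ± 0.12) and BEST1 (log2 -0.74 ± 0.14) and the potassium channel KCNN4 (log2 -0.36 ± 0.090). KCNE3, a subunit that holds a potassium channel open, fell from 18.4 ± 1.38 to 8.95 ± 0.351 CPM (SD, n = 3; log2 -1.04 ± 0.12). Its partner KCNQ1, which overlaps KCNQ1OT1, did not pass (log2 0.13 ± 0.078, adjusted p = 0.178), but did with the correction (log2 0.17, adjusted p = 0.0477). The kinase gene WNK4 fell too (log2 -1.18 ± 0.10). It overlaps COA3.

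In 3 lists of growth factor signalling, falls outnumbered rises. In the list of DUSP phosphatases and ERK feedback genes 5 of 20 tested rose and 9 fell (7 and 8 with the length and GC correction). The rises were those of DUSP1, DUSP2, DUSP5, DUSP10 (log2 1.30 ± 0.17) and IER3 (log2 1.32 ± 0.19). The falls included feedback inhibitors of receptor tyrosine kinase signals: SPRY1, SPRED1 (204, 196 and 215 CPM at pH 7.4 against 79.1, 77.7 and 78.7 CPM at pH 6.0; log2 -1.39 ± 0.079), SPRED2 (log2 -1.06 ± 0.084), SPRY2 (log2 -0.69 ± 0.084) and the ERK target ETV5 (log2 -1.18 ± 0.12). Of 13 EGF receptor family genes 6 fell and none rose by edgeR (none was higher at an unadjusted p under 0.05, and DESeq2 called none). With the length and GC correction 4 rose and 7 fell, and without neutral replicate 1 a single gene rose. EGFR (ENSG00000146648) measured 232, 245 and 288 CPM in the neutral libraries and 122, 136 and 123 CPM in the acid libraries, a 2.00-fold fall (log2 -1.003 ± 0.11, adjusted p = 7.15e-07). ERBB3, a kinase-impaired partner, measured 883, 844 and 988 CPM at pH 7.4 against 613, 587 and 627 CPM at pH 6.0 (log2 -0.57 ± 0.091, adjusted p = 2.31e-05), and the ligand gene EREG 125, 109 and 145 CPM at pH 7.4 against 70.9, 81.9 and 72.1 CPM at pH 6.0 (log2 -0.75 ± 0.11, adjusted p = 9.99e-06). The groups were apart in all of these. In the insulin and FOXO list 5 of 23 tested rose and 9 fell (7 and 6 with the correction, which turns the majority). The falls included IRS1 (228, 276 and 264 CPM at pH 7.4 against 94.6, 114 and 95.8 CPM at pH 6.0; log2 -1.34 ± 0.094), IRS2 and the PI3 kinase subunit gene PIK3R1 (log2 -1.25 ± 0.10). The rises included the arrestin-domain gene ARRDC3 (log2 0.76 ± 0.12) and TRIB1 (log2 0.35 ± 0.074).

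Of 28 genes of growth arrest and the DNA damage response 8 rose and 8 fell (median -0.07). The rises included members of the GADD45 and BTG families, which restrain growth after stress: GADD45A (44.1, 48.5 and 37.0 CPM at pH 7.4 against 106, 128 and 114 CPM at pH 6.0; log2 1.43 ± 0.14), GADD45G (log2 1.62 ± 0.45) and BTG2 (49.8, 55.2 and 47.5 CPM at pH 7.4 against 165, 209 and 172 CPM at pH 6.0; log2 1.84 ± 0.11). CDKN1A, the p21 inhibitor of cyclin-dependent kinases, measured 122, 137 and 129 CPM at pH 7.4 against 165, 192 and 157 CPM at pH 6.0 (log2 0.40 ± 0.095, adjusted p = 0.00129). The sestrin genes SESN2 (log2 -0.53 ± 0.10) and SESN3 (log2 -1.08 ± 0.16) and the ubiquitin ligase gene MDM2 (88.7, 81.3 and 97.4 CPM at pH 7.4 against 52.1, 43.4 and 46.3 CPM at pH 6.0; log2 -0.92 ± 0.11) fell. In the BCL2 family 8 of 20 tested rose and 4 fell. MCL1 (ENSG00000143384), a short-lived survival protein, measured 763, 787 and 787 CPM in the neutral libraries and 1757, 1884 and 1844 CPM in the acid libraries (log2 1.23 ± 0.074, adjusted p = 9.71e-12), with the groups apart. PMAIP1 (log2 1.004 ± 0.11), BBC3 (log2 0.91 ± 0.11) and BAK1 (log2 0.77 ± 0.10), whose products promote cell death, rose as well. BCL2L1 (log2 -0.52 ± 0.073), which encodes BCL-XL, and BCL2L11 (log2 -0.71 ± 0.11), which encodes BIM, fell. In the MYC network 4 of 13 tested genes rose and 6 fell. The MYC antagonists moved in both directions. MXD1 (log2 1.18 ± 0.082), MXI1 (log2 0.94 ± 0.10) and MNT (log2 0.40 ± 0.11) rose, and MXD4 (log2 -1.18 ± 0.10) and MGA (log2 -1.005 ± 0.13) fell. MYC, MYCN (log2 -1.83 ± 0.21) and MAX (log2 -0.49 ± 0.087) fell too.

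Cell cycle genes rose more often than they fell, by small amounts. Of 50 genes of G1/S and DNA replication 28 rose and 6 fell (median 0.31), and of 46 genes of G2 and mitosis 26 rose and 4 fell (median 0.32). With the length and GC correction the counts were 30 and 5, and 30 and 6. The replication clamp gene PCNA measured 126, 118 and 103 CPM in the neutral libraries and 169, 181 and 159 CPM in the acid libraries (log2 0.55 ± 0.13, adjusted p = 0.00241), the helicase gene MCM2 rose by a log2 of 0.60 ± 0.083 and GINS2 by 0.83 ± 0.11. CKS2, a small partner of cyclin-dependent kinases, measured 40.3, 37.6 and 29.3 CPM in the neutral libraries and 87.0, 78.9 and 88.4 CPM in the acid libraries (log2 1.24 ± 0.13, adjusted p = 2.78e-07). All acid libraries of PCNA and CKS2 lay above the neutral ones. PTTG1 (log2 0.94 ± 0.12), CCNA2 (log2 0.84 ± 0.080), CDC20 (log2 0.73 ± 0.11) and TPX2 (log2 0.68 ± 0.091) rose too. The G1 cyclin genes CCND1 (212, 206 and 237 CPM at pH 7.4 against 165, 175 and 151 CPM at pH 6.0; log2 -0.42 ± 0.078) and CCND2 (log2 -0.73 ± 0.10) fell, as did E2F1 (log2 -0.48 ± 0.10), E2F3 (log2 -0.60 ± 0.085) and the mitotic genes ASPM (log2 -0.83 ± 0.10) and CCNF (log2 -1.38 ± 0.11). MCM2, CCNA2 and CCND1 each overlap a neighbouring gene.

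HOX genes keep the regional identity of the gut epithelium. Of 27 tested members 22 fell and 1, HOXB13 (log2 0.52 ± 0.19), rose, at a median log2 change of -1.05, and 22 fell and 1 rose with the length and GC correction. HOXB13 lost its call without neutral replicate 3 (adjusted p = 0.108) or acid replicate 2 (adjusted p = 0.0739). A further 12 members did not pass the low-count filter. HOXB3 measured 55.1, 58.2 and 59.1 CPM in the neutral libraries and 9.58, 11.9 and 13.9 CPM in the acid libraries (log2 -2.28 ± 0.13, adjusted p = 5.68e-12), HOXA3 35.1, 38.7 and 36.0 CPM at pH 7.4 against 10.3, 9.66 and 11.5 CPM at pH 6.0 (log2 -1.81 ± 0.11), and HOXA5 25.6, 30.7 and 30.7 CPM at pH 7.4 against 9.17, 7.79 and 9.42 CPM at pH 6.0 (log2 -1.73 ± 0.12). HOXA13, the most posterior of its cluster, measured 58.6, 57.2 and 60.7 CPM at pH 7.4 against 24.7, 26.2 and 28.9 CPM at pH 6.0 (log2 -1.145 ± 0.091). In each the highest acid library was below the lowest neutral one. Genes of these clusters overlap each other and antisense transcripts, so reads of neighbours such as HOXB3 and HOXB4, or HOXA3 and HOXA-AS3, cannot be told apart here.

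Among intestinal lineage factors 3 of 23 tested rose and 10 fell (median -0.33). SOX9 (ENSG00000125398), a crypt and progenitor factor, measured 259.8, 271 and 261 CPM in the neutral libraries and 86.4, 83.98 and 84.5 CPM in the acid libraries, a 3.11-fold fall (log2 -1.63 ± 0.083, adjusted p = 4.81e-13). GATA6, an endoderm factor, fell from 72.9 ± 3.68 to 29.1 ± 1.16 CPM (SD, n = 3; log2 -1.33 ± 0.081). ATOH1, the secretory lineage factor, measured 1.105, 2.52 and 1.64 CPM at pH 7.4 against 0.204, 0.101 and 0.0682 CPM at pH 6.0 (log2 -3.78 ± 0.55, adjusted p = 7.72e-06). The groups did not overlap for these genes. EHF (log2 -0.52 ± 0.090) and FOXA1 (log2 -0.85 ± 0.11) fell, while the epithelial ETS factor gene ELF3 (103, 97.8 and 94.8 CPM at pH 7.4 against 211, 234 and 260.4 CPM at pH 6.0; log2 1.25 ± 0.10), HES1 (log2 0.46 ± 0.13) and LGR5 (log2 0.34 ± 0.085) rose. The colon master factor genes CDX2 (log2 0.089 ± 0.090, adjusted p = 0.441) and HNF4A (log2 -0.084 ± 0.10, adjusted p = 0.495) did not pass. Of 15 Kruppel-like and SP factors 5 rose and 8 fell. With the correction 7 rose and 5 fell, and without neutral replicate 2 or any acid library the falls were 5, so no majority is read here. KLF5, a crypt factor, measured 601, 616 and 646 CPM in the neutral libraries and 205, 222 and 209 CPM in the acid libraries. Every acid library was far below the neutral ones (log2 -1.55 ± 0.078, adjusted p = 4.44e-13). KLF10 (log2 1.16 ± 0.091), KLF11 (log2 0.89 ± 0.074), KLF2 (log2 1.119 ± 0.15) and KLF9 (log2 0.86 ± 0.095) rose.

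Of 25 tested BMP and Notch feedback genes 1 rose and 13 fell (median -0.38). The BMP target genes ID1 (33.3, 42.6 and 36.3 CPM at pH 7.4 against 10.2, 17.2 and 11.9 CPM at pH 6.0; log2 -1.497 ± 0.18), ID3 (log2 -1.28 ± 0.12) and ID2 (log2 -0.82 ± 0.11), the inhibitory SMAD gene SMAD7 (log2 -1.85 ± 0.14) and the ligand gene BMP4 (log2 -1.37 ± 0.13) fell, as did the Notch ligand gene JAG1 (log2 -0.80 ± 0.088) and the Notch glycosyltransferase gene LFNG (log2 -1.28 ± 0.11). HES1, a Notch target, was the member that rose, and without acid replicate 1 a second member did. Of 22 genes of the YAP and TEAD pathway 2 rose and 12 fell. The 2 were CCN1 and CCN2, which are YAP targets and immediate early genes, and the falls included the scaffold genes AJUBA (377, 396 and 400.0 CPM at pH 7.4 against 174, 169 and 169 CPM at pH 6.0; log2 -1.20 ± 0.072) and AMOTL2 (log2 -0.85 ± 0.079) and TEAD1 (log2 -0.53 ± 0.12). Of 20 clock genes 5 rose and 9 fell. PER1, a clock repressor with immediate early behaviour, measured 39.9, 42.4 and 44.2 CPM in the neutral libraries and 199, 217 and 208 CPM in the acid libraries (log2 2.30 ± 0.089, adjusted p = 5.49e-15). NR1D1 (log2 1.67 ± 0.11), which overlaps THRA, DBP (log2 0.94 ± 0.13) and CRY2 (log2 0.87 ± 0.078) rose, and BMAL1 (log2 -0.89 ± 0.14), CLOCK (log2 -0.56 ± 0.10) and PER2 (log2 -0.74 ± 0.10) fell.

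Of 29 tested amino acid transporter genes 4 rose and 18 fell (median -0.52), and 6 and 16 with the length and GC correction. SLC7A5 (ENSG00000103257), the large neutral amino acid exchanger LAT1, measured 932, 1035 and 1085 CPM in the neutral libraries and 436, 511 and 412 CPM in the acid libraries (log2 -1.17 ± 0.094, adjusted p = 1.17e-09). Its heavy chain SLC3A2 fell less (log2 -0.34 ± 0.089). SLC7A11, the cystine importer that supplies glutathione synthesis, measured 314, 282 and 368 CPM in the neutral libraries and 112, 108 and 92.2 CPM in the acid libraries (log2 -1.63 ± 0.11, adjusted p = 3.31e-10), and SLC7A1, a cationic amino acid transporter, 475, 502 and 559 CPM at pH 7.4 against 195, 232 and 200.2 CPM at pH 6.0 (log2 -1.29 ± 0.091). The groups were apart in each. The glutamine carriers SLC38A2 (1333, 1311 and 1347 CPM at pH 7.4 against 253, 225 and 267 CPM at pH 6.0) and SLC38A1 (log2 -1.001 ± 0.090), SLC1A5 (log2 -0.80 ± 0.078) and the glycine transporter SLC6A9 (log2 -2.49 ± 0.12) fell. SLC6A8, which carries creatine, rose (log2 0.79 ± 0.18). Of 20 aminoacyl-tRNA synthetase genes 10 fell, from YARS1 (log2 -0.48 ± 0.077) and IARS1 (log2 -0.45 ± 0.081) to AARS1 (709.5, 707 and 746 CPM at pH 7.4 against 407, 397 and 420.0 CPM at pH 6.0; log2 -0.82 ± 0.076), and 5 rose. In the list of glutamine and ammonia genes 5 of 16 tested rose and 8 fell. Asparagine synthetase (ASNS) measured 288, 300.3 and 288 CPM at pH 7.4 against 149.5, 159 and 154 CPM at pH 6.0 (log2 -0.92 ± 0.076), and the transaminase gene GPT2 fell too (log2 -0.98 ± 0.076), whereas OAT, ornithine aminotransferase, rose (log2 0.59 ± 0.092).

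Genes of central carbon metabolism rose more often than they fell. PCK1 (ENSG00000124253), the rate-limiting enzyme of gluconeogenesis, measured 37.1, 39.3 and 47.3 CPM in the neutral libraries and 339, 335 and 438 CPM in the acid libraries (log2 3.17 ± 0.12, adjusted p = 3.20e-14), while PCK2, its mitochondrial counterpart, fell (256, 269 and 249 CPM at pH 7.4 against 160.0, 173 and 173 CPM at pH 6.0; log2 -0.62 ± 0.076). Of 21 genes of gluconeogenesis and pyruvate dehydrogenase control 10 rose and 5 fell (3 fell without neutral replicate 3). PDK1, a kinase that turns pyruvate dehydrogenase off, rose from 20.1 ± 2.52 to 44.7 ± 3.91 CPM (SD, n = 3; log2 1.153 ± 0.11), as did the pyruvate carrier genes MPC1 (log2 0.66 ± 0.16) and MPC2 (log2 0.41 ± 0.10). Of 20 citrate cycle genes 17 rose, 1 fell and 2 did not pass (median 0.35), and 16 rose and 1 fell with the correction. The rises were of 1.14- to 1.64-fold. SUCLG1 measured 70.3, 61.6 and 55.1 CPM in the neutral libraries and 106, 98.9 and 101 CPM in the acid libraries (log2 0.71 ± 0.10, adjusted p = 4.01e-06), and MDH1 (log2 0.65 ± 0.11) and the succinate dehydrogenase genes SDHB (log2 0.54 ± 0.12), SDHC (log2 0.58 ± 0.094) and SDHD (log2 0.60 ± 0.10) rose by similar amounts. The member that fell, OGDH (log2 -0.39 ± 0.070), encodes the first subunit of oxoglutarate dehydrogenase. Of 73 tested genes for mitochondrial ribosomal proteins 32 rose and 3 fell (25 and 4 with the correction; median 0.29 as fitted). Neutral replicate 3 weighed on this count: without it 18 rose and 1 fell. Of the 13 mRNAs encoded in the mitochondrial genome 4 fell, those named above, and none rose by edgeR (none was higher at an unadjusted p under 0.05, and DESeq2 called none). Without acid replicate 1 or acid replicate 3 the falls were 2.

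Of 28 NRF2 antioxidant and NADPH genes 12 rose and 6 fell (median 0.29). The peroxiredoxin gene PRDX1 measured 109.5, 114 and 88.0 CPM in the neutral libraries and 189.9, 182 and 180.2 CPM in the acid libraries (log2 0.83 ± 0.11, adjusted p = 1.74e-06), and thioredoxin (TXN, log2 0.77 ± 0.13), ferritin light chain (FTL, log2 0.62 ± 0.10), GPX2 (log2 0.63 ± 0.12) and NQO1 (log2 0.48 ± 0.082) rose. The acid libraries exceeded the neutral ones in PRDX1. Among the genes that fell were those of the regulator NRF2 (NFE2L2, log2 -0.37 ± 0.086), its inhibitor KEAP1 (log2 -0.55 ± 0.094) and glutathione synthesis (GCLC, log2 -0.64 ± 0.071; SLC7A11), and the reductase gene AKR1B10 (log2 -0.48 ± 0.15), which lost its call without acid replicate 1 (adjusted p = 0.0697) or acid replicate 3 (adjusted p = 0.0752). Of 11 tested metallothionein and zinc genes MT1X rose (log2 2.18 ± 0.31), and MTF1 (log2 -0.71 ± 0.11) and MT1F (log2 -0.90 ± 0.27) fell. The call of MT1F was lost without neutral replicate 2 (adjusted p = 0.0540), acid replicate 1 (adjusted p = 0.0660) or acid replicate 2 (adjusted p = 0.0786).

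The proteasome degrades ubiquitin-tagged proteins. Of 36 proteasome genes 25 rose and none fell by edgeR (median 0.40). At an unadjusted p under 0.05, 2 were lower, and DESeq2 called none lower. With the length and GC correction 23 rose and 1 fell (median 0.28). The core subunit gene PSMB6 measured 32.7, 33.1 and 27.98 CPM in the neutral libraries and 52.0, 51.8 and 43.2 CPM in the acid libraries (log2 0.65 ± 0.13, adjusted p = 3.60e-04), PSMB1 170.5, 177 and 135 CPM at pH 7.4 against 247, 243 and 237 CPM at pH 6.0 (log2 0.59 ± 0.11) and the ubiquitin receptor gene PSMD4 116, 108 and 96.7 CPM at pH 7.4 against 167, 159.7 and 159 CPM at pH 6.0 (log2 0.60 ± 0.090). All acid libraries were above the neutral ones. The assembly factor gene POMP (log2 0.63 ± 0.11) and the activator gene PSME2 (log2 0.74 ± 0.14), which overlaps RNF31, rose too. Of 43 tested translation factor genes 18 rose and 6 fell (median 0.23). The elongation factor genes EEF1A1 (log2 0.51 ± 0.094) and EEF1B2 (log2 0.60 ± 0.14) and EIF4A2 (log2 0.58 ± 0.094) rose. EIF5 (236, 223 and 213 CPM at pH 7.4 against 97.3, 98.6 and 87.8 CPM at pH 6.0; log2 -1.24 ± 0.079) and EIF3A (853, 817 and 875 CPM at pH 7.4 against 463, 405 and 427 CPM at pH 6.0; log2 -0.97 ± 0.081) fell. Of 50 genes of ribosome biogenesis and RNA polymerase I 13 rose and 18 fell. NPM1 (log2 0.50 ± 0.091), FBL (log2 0.44 ± 0.091) and NHP2 (log2 0.66 ± 0.11) rose, and the polymerase subunit gene POLR1B (log2 -0.78 ± 0.085), NOP2 (log2 -0.82 ± 0.11), WDR43 (log2 -0.80 ± 0.086) and RRS1 (log2 -1.13 ± 0.17) fell.

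Of 37 splicing regulator genes 19 rose and 6 fell (median 0.33). CLK1, a kinase of SR proteins, measured 72.2, 64.5 and 73.1 CPM in the neutral libraries and 143, 139.8 and 148 CPM in the acid libraries (log2 1.04 ± 0.10, adjusted p = 1.04e-08), with the groups apart, and SRSF7 (log2 0.79 ± 0.10), SRSF5 (log2 0.68 ± 0.10) and HNRNPC (log2 0.66 ± 0.081) rose. SRSF1 (log2 -0.43 ± 0.079), SRSF10 (log2 -0.50 ± 0.079), RBM5 (log2 -0.60 ± 0.085) and CLK2 (log2 -0.73 ± 0.14) fell. Of 19 tested host genes of small nucleolar RNAs and other nuclear non-coding transcripts 7 rose and none fell by edgeR (none was lower at an unadjusted p under 0.05, and DESeq2 called none lower). The 7 were the nuclear transcripts NEAT1 (223, 253 and 268 CPM at pH 7.4 against 456, 506 and 431 CPM at pH 6.0; log2 0.90 ± 0.11) and MALAT1 (log2 0.87 ± 0.10), and GAS5 (log2 0.55 ± 0.14), ZFAS1 (log2 0.51 ± 0.10), SNHG3 (log2 0.99 ± 0.14), SNHG6 (log2 0.58 ± 0.15) and SNHG12 (log2 1.34 ± 0.17). Of 406 tested protein-coding genes with a ZNF symbol 23 rose and 201 fell (49.5%, against 27.7% of all protein-coding genes), at a median log2 change of -0.40. With the length and GC correction 41 rose and 182 fell (median -0.30). By class of transcript, 23.6% of 12607 protein-coding genes rose and 27.7% fell, against 15.4% and 13.5% of 1691 long non-coding genes. At least 2-fold rises and falls were seen for 335 and 599 of the protein-coding and 175 and 141 of the long non-coding genes. The classes were not matched for level, with which the share of calls rose, so a weaker response of non-coding genes was not tested.

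**Figure D4:**
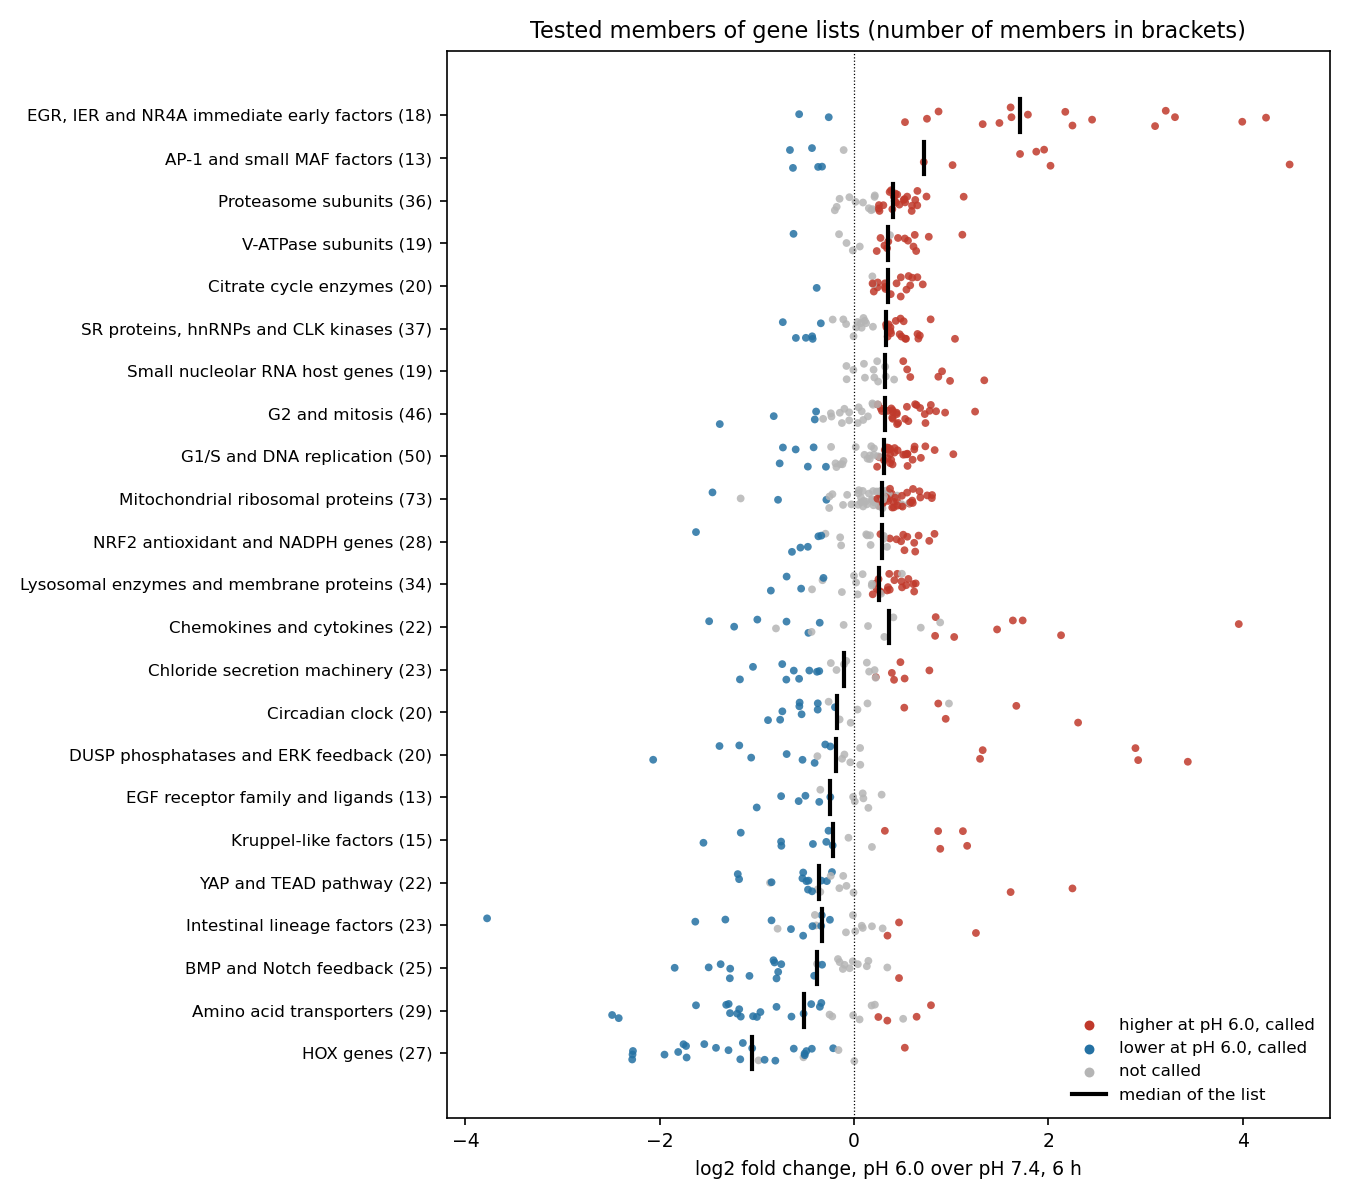
Log2 fold change at 6 h (pH 6.0 over pH 7.4) of each tested member of the gene lists shown, coloured by call, with the number of members in brackets and the list's median as a bar. The lists run from immediate early factors (median 1.70) at the top to HOX genes (median -1.05) at the bottom.

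Claudins seal or open the tight junction for ions. Of 11 tested claudins 3 rose and 5 fell. CLDN3 (332, 401 and 294 CPM at pH 7.4 against 540.4, 696 and 621 CPM at pH 6.0; log2 0.85 ± 0.13) rose besides CLDN4, and CLDN1 measured 292, 286 and 306 CPM in the neutral libraries and 97.4, 106 and 91.1 CPM in the acid libraries, a 2.99-fold fall without overlap (log2 -1.58 ± 0.077, adjusted p = 2.84e-13). CLDN2, which forms a cation-permeable pore, fell (log2 -0.51 ± 0.11). Of 17 tested desmosome and adherens genes 1 rose and 8 fell (2 and 4 with the length and GC correction). The plakin genes EVPL (log2 -0.86 ± 0.093) and PPL (log2 -0.73 ± 0.11) and the cadherin gene DSC2 (log2 -0.49 ± 0.089) fell. DSG2, the member that rose, lost its call without neutral replicate 2. Of 17 keratins 4 rose and 1 fell. KRT8 measured 2943, 2928 and 2886 CPM in the neutral libraries and 4579, 4394 and 4589 CPM in the acid libraries (log2 0.63 ± 0.084, adjusted p = 2.15e-06), above the neutral libraries in every acid library, and KRT19 (log2 0.51 ± 0.083) and KRT18 (log2 0.34 ± 0.093), which overlaps KRT8, rose. KRT20 fell (log2 -0.23 ± 0.084), but lost its call when any library but neutral replicate 3 was left out (adjusted p from 0.0576 to 0.18).

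Of 18 tested mucin and goblet cell genes 3 rose and 5 fell (5 and 3 with the correction, 6 and 4 without neutral replicate 2, and 1 and 3 without neutral replicate 3), so no majority is read. MUC13, a membrane mucin, fell (1189, 1137 and 1211 CPM at pH 7.4 against 943, 869 and 945 CPM at pH 6.0; log2 -0.36 ± 0.075), as did the gel-forming mucins MUC5AC (log2 -0.95 ± 0.17) and MUC6 (log2 -2.22 ± 0.25), whereas AGR2, the disulfide isomerase of mucin folding, rose (log2 0.52 ± 0.11). Of 20 tested brush border genes 3 rose and 3 fell (6 and 1 with the correction, and 1 fell without neutral replicate 3 or acid replicate 2). FABP1, a fatty acid carrier, rose (950.4, 924 and 724 CPM at pH 7.4 against 1425, 1127 and 1499 CPM at pH 6.0; log2 0.64 ± 0.12), as did EZR (log2 0.39 ± 0.083) and VIL1 (log2 0.30 ± 0.081), and MYO1A, a brush border myosin, fell (log2 -0.47 ± 0.083). Of 22 tested chemokine and cytokine genes 8 rose and 6 fell (median 0.36). LIF measured 28.1, 26.2 and 27.1 CPM in the neutral libraries and 108, 135 and 113 CPM in the acid libraries (log2 2.13 ± 0.11, adjusted p = 4.10e-13) and the chemokine gene CCL20 25.8, 22.4 and 24.4 CPM in the neutral libraries and 78.5, 85.7 and 77.0 CPM in the acid libraries (log2 1.73 ± 0.13, adjusted p = 4.29e-10). The groups were apart in both. CXCL8 rose from 9.99 ± 0.632 to 27.6 ± 6.10 CPM (SD, n = 3; log2 1.47 ± 0.25), IL32 by a log2 of 0.83 ± 0.12 and TNF from a level near the floor (0.0581, 0.215 and 0.548 CPM at pH 7.4 against 3.40, 5.21 and 4.16 CPM at pH 6.0). The interferon-inducible CXCL11 (log2 -1.23 ± 0.16) and the TNF family gene TNFSF15 (log2 -1.49 ± 0.14) fell.

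The 6 h difference was set beside the 3 h difference, which rests on 6 other libraries of the same design. At 3 h, 2937 genes passed (18.8%), 9.53% higher and 9.26% lower. Both times called 1874 genes, 25.5% of the calls at 6 h and 63.8% of those at 3 h. Of these 1673 moved the same way at both times and 201 did not, 155 of them higher at 3 h and lower at 6 h. The difference between the times was tested directly as an interaction. It passed for 4589 genes (29.4%), with the 6 h change above the 3 h change in 2048 (13.1%) and below it in 2541 (16.3%). With the length and GC correction the split turned, with 2076 above and 1609 below. All 201 genes of opposite direction passed the interaction, which their choice by calls of opposite sign made nearly certain. Of the 1222 genes that moved the same way and further at 6 h, 477 passed it. A gene called at 6 h alone is not thereby shown to differ between the times.

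CCN2 measured 38.7 ± 2.89 CPM at pH 7.4 and 38.2 ± 4.72 CPM at pH 6.0 at 3 h (SD, n = 3 each; log2 -0.014 ± 0.11) and 30.9, 30.5 and 30.6 CPM at pH 7.4 against 135, 129 and 172 CPM at pH 6.0 at 6 h, an interaction of 2.26 ± 0.15 (adjusted p = 1.91e-09). SERTAD1, a coregulator of E2F factors, went from a log2 change of -0.12 ± 0.14 to 1.76 ± 0.13 (interaction adjusted p = 8.96e-07), and the sterol enzyme gene MSMO1 from 0.44 ± 0.082 to 2.36 ± 0.086 (adjusted p = 9.95e-10). KIT, a receptor tyrosine kinase gene, rose to 3.27 ± 0.33 at 6 h from 1.22 ± 0.26 (adjusted p = 0.00209), and RHOV, a small GTPase gene, to 2.42 ± 0.17 from 0.58 ± 0.17 (adjusted p = 1.43e-05). These genes were chosen among the 10 with the largest interaction above 0 that passed its test. That their 6 h change exceeded the 3 h change by more than its error follows from this choice. Of the 36 proteasome genes 3 fell at 3 h and none rose by edgeR (1 was higher at an unadjusted p under 0.05, and DESeq2 called none). The interaction passed for 22 of them with the 6 h change above the 3 h change. Of the 73 mitochondrial ribosomal genes 1 rose and 6 fell at 3 h, and the interaction passed above for 37 and below for 1. For the 50 G1/S genes these counts were 4 and 3 at 3 h, and 21 above and 6 below. Of the 19 V-ATPase genes 2 fell at 3 h, and the interaction passed above for 8. Among all genes 9.53% rose and 9.26% fell at 3 h. The interaction passed above for 13.1% of all genes and below for 16.3%. Counts of these lists and of those below are to be read against these shares. The 3 h counts of these 4 lists were near or below them and are not read as a change.

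Of the 27 HOX genes 2 rose and 9 fell at 3 h, and the interaction passed with the 6 h change below for 14. HOXB4 changed by 0.091 ± 0.18 at 3 h and by -1.95 ± 0.20 at 6 h (interaction -2.04 ± 0.28, adjusted p = 2.05e-05). KIF21B, which changed by -0.32 ± 0.14 at 3 h, had an interaction of -1.79 ± 0.19 (adjusted p = 8.96e-07), and GALNT4, a glycosyltransferase gene, of -1.81 ± 0.24 (adjusted p = 1.38e-05). In the EGF receptor list 1 gene passed above and 7 below: EGFR changed by 0.17 ± 0.11 at 3 h and -1.003 ± 0.11 at 6 h (adjusted p = 4.03e-05). The junction genes PLEC and DSP reversed, from 0.51 ± 0.12 and 0.47 ± 0.11 at 3 h to -0.54 ± 0.12 and -0.47 ± 0.11 at 6 h (interaction adjusted p = 1.68e-04 and 1.91e-04). Both lost their 6 h call with the length and GC correction, as given above. Among the acid-handling genes, the interaction passed for SLC16A1 (3 h 0.13 ± 0.075, adjusted p = 1.25e-04), SLC16A3 (3 h 0.67 ± 0.10, adjusted p = 4.15e-04) and SLC9A8 (3 h -0.17 ± 0.092, adjusted p = 0.00254). It did not pass for SLC26A2 (3 h 1.002 ± 0.16, interaction 0.32 ± 0.23, adjusted p = 0.337) or CFTR (3 h 0.51 ± 0.10, interaction -0.12 ± 0.14, adjusted p = 0.575), and a p that misses the threshold does not show equal change. The change of FOS was smaller at 6 h (2.02 ± 0.087) than at 3 h (2.58 ± 0.088; interaction adjusted p = 0.00149), and that of EGR1 was 1.62 ± 0.084 against 1.89 ± 0.085 (adjusted p = 0.0804).

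**Figure D5:**
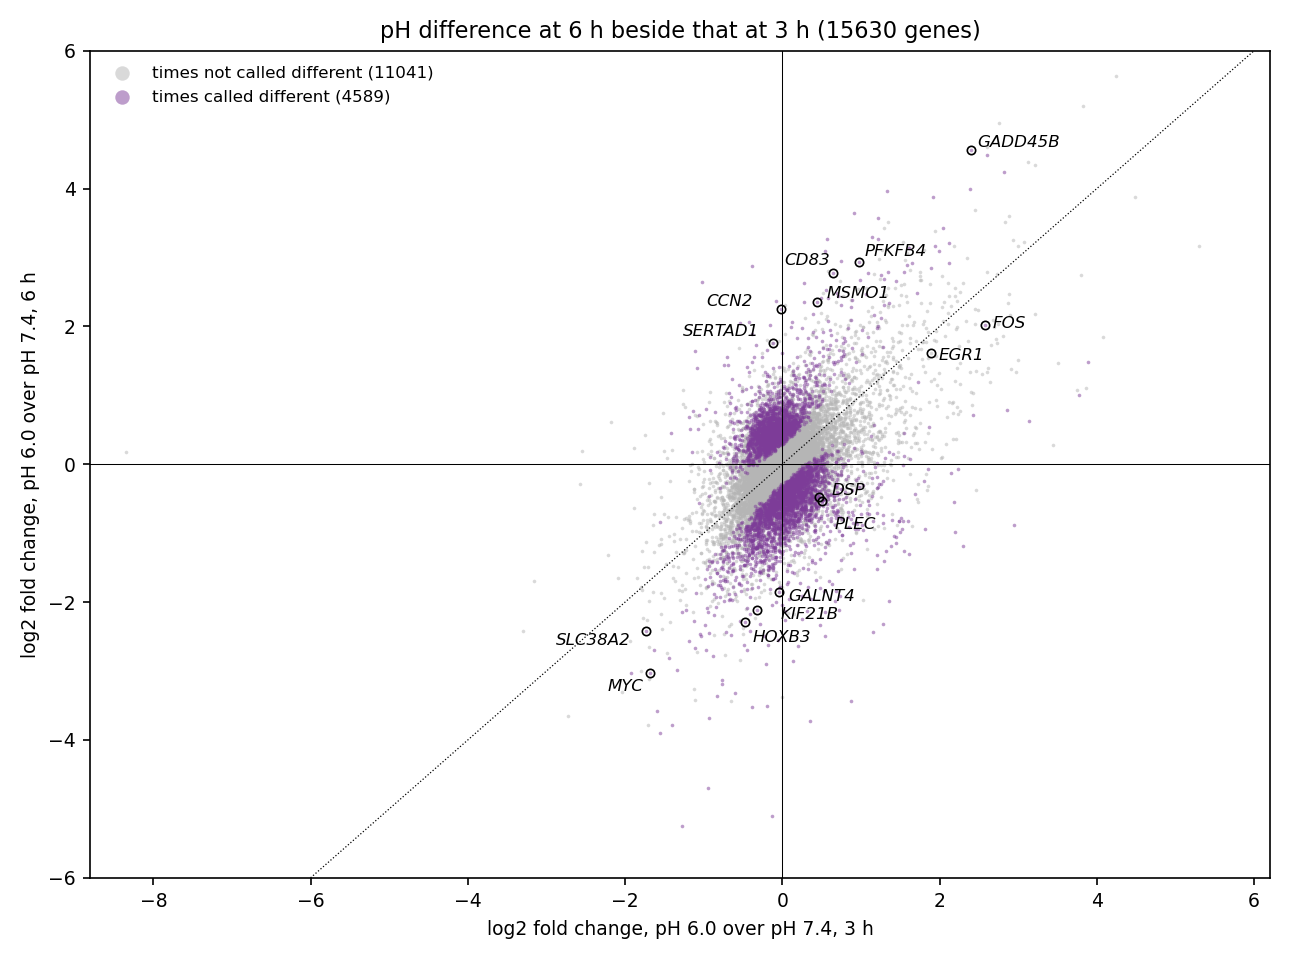
Each point is 1 of 15630 genes: its log2 fold change (pH 6.0 over pH 7.4) at 3 h against that at 6 h. Purple genes passed the test of the difference between times (4589), grey genes did not (11041), and the dotted line marks equal change. Circled genes are described in the text; GADD45B and CCN2 lie above the line, and FOS, MYC and HOXB3 below it.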

How the data were processed

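RNA of T84 cells was sequenced in 12 libraries. The authors deposited, for each library, whole-number read counts and RPKM values per Ensembl gene, and STAR, CASAVA and the genome build hg19 are named in the submitters' processing notes, without versions. The sources used here name no counting program, annotation or use of strand. Deposited RPKM values served only to recover gene lengths. Lengths so recovered were the same in every library, to a relative difference of 1e-06, for 100.0% of the values checked. Counts of rows without a symbol were at most 1.11% of a library.

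Counts were tested with edgeR 4.0.16 (robust quasi-likelihood F test, TMM scaling, filterByExpr) in R 4.3.3. All 12 libraries, in 4 groups of 3, entered a single fit with 8 residual degrees of freedom, so the 3 h libraries share the estimate of spread. An adjusted p (Benjamini-Hochberg) under 0.05 was called changed. The common biological coefficient of variation was 9.29%, and the totals were 13912532 to 24331032 counts. Mitochondrial transcripts took 7.97 to 8.97% of the neutral and 7.14 to 7.40% of the acid counts of 6 h. No pair of libraries within a 6 h group was within sampling noise of each other (5.40 to 12.8 as the ratio of chi-square to its degrees of freedom), so none was treated as a duplicate. The fit was tested on simulated counts.

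The length correction put natural splines (5 degrees of freedom) of gene length and GC content into each library's offset, for 15167 genes. Further alternatives were DESeq2 1.42.0, other scalings and filters, the 6 h libraries alone, a replicate block, a test against a 1.2-fold change (edgeR) and each 6 h library left out. Symbols came from the supplied gene table and, with GC content, biotype and exon overlap, from GENCODE 29 on GRCh38, another build than the authors', so no gene coordinates were taken from it. Promoter sequences and windows are those of RefSeq on GRCh38.p14. Of the entries of 50 gene lists 1274 matched by symbol and 28 by synonym, and 14 were not analysed here.

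The comparison and the lists were chosen with earlier results of these data known. Genes were named by rule: the 25 largest rises and 25 largest falls with a mean of at least 100 counts and groups that do not overlap, the 10 largest differences in CPM each way, up to 5 changed members of each list by p, an acid-handling set, and the 10 largest interactions each way among genes with a mean of at least 100 counts over all libraries. A further 90 list members were named after their values were seen. Other named genes that share exons with a neighbour, and whose reads could be counted for either, are NAB2, MAFG, ZBTB9, SLC9B2, SLC26A1, SLC26A11, CA7, LIPA, NPC1, MAP1LC3B, BNIP3L, BEST1, MXD1, BCL2L11, GINS2, HOXA13, DBP, CLOCK, PDK1, MPC2, SDHC, SDHD, NFE2L2, EEF1B2, NHP2, ZFAS1, SNHG3, SNHG12 and RBM5. Results for some genes are not reported here.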

Additional observations from a re-analysis of the deposited data

Results flagged for a closer look

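The pH effect differed between 6 h and 3 h, by edgeR's interaction test, for 4589 genes. Among these are 235 of the 315 tested genes named in the text, against 29.4% of all genes. Many named genes were chosen by small p, by a large interaction or after their values were seen. The count therefore follows largely from that choice and is not read as a result. Among genes with a mean of at least 100 counts over all libraries, the 10 with the 6 h change furthest above the 3 h change, with the difference on the log2 scale, were CCN2 (2.26), GADD45B (2.16), CD83 (2.14), KIT (2.05), RND1 (1.96), PFKFB4 (1.96), MSMO1 (1.92), FOSB (1.87), SERTAD1 (1.87) and RHOV (1.84).

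The 10 furthest below, under the same limit, were the non-coding transcripts AC012531.1 (-3.31) and Z83843.1 (-2.43), the pseudogene AL359955.1 (-2.28), which was not called at 6 h, then HOXB4 (-2.04), HOXB-AS3 (-1.83), GALNT4 (-1.81), HOXB3 (-1.81), KIF21B (-1.79), HOXA-AS3 (-1.74) and HOXA6 (-1.74). Of these 10, HOXB3, HOXB4, HOXB-AS3, HOXA6 and HOXA-AS3 lie in 2 gene clusters where neighbours overlap, so they are not separate observations.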

How the results depend on the processing

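The 7342 calls at 6 h were 7017 with DESeq2, 7356 with median-of-ratios factors, 7276 with library totals alone, 7331 with no filter, 6436 with a filter of 5 CPM in 3 libraries, 7651 with only the libraries compared and 7232 with the length and GC correction. DESeq2 shared 93.0% of the calls and the corrected fit 83.7%. Rises outnumbered falls with the correction (3807 and 3425) and with the 5 CPM filter (3317 and 3119), which left 221 genes at least 2-fold higher and 400 lower among fewer genes tested. Against a fold change of 1.2 the calls were 4464 (1912 higher, 2552 lower) and the interaction 2357 (968 and 1389). The correction left 1609 genes with the interaction below, against 2541. The cause was not tested.

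Leaving out each 6 h library in turn gave 6203 to 6772 calls, 2807 to 3372 higher and 3236 to 3589 lower, 625 to 704 at least 2-fold higher and 740 to 848 lower, and an interaction of 3457 to 4403 genes (1479 to 2056 above, 1978 to 2347 below). The replicate numbers showed no clear pairing of the libraries: same-numbered neutral and acid libraries deviated with r of 0.068, 0.144 and -0.028. Libraries of unlike number had r of -0.121 to 0.053, so a weak pairing is not excluded. A replicate block gave 7457 calls at 6 h (3472 higher, 3985 lower) and 4774 for the interaction.

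Near 0, the log2 change of CA9 turned positive with DESeq2 (0.0054), median-of-ratios factors (0.0050), the 5 CPM filter (0.039), only the libraries compared (0.010), and without neutral replicate 2 (0.053), acid replicate 1 (0.078) or acid replicate 2 (0.092), in a range of -0.083 to 0.092 over the libraries left out. That of SLC9A3 did so with the 5 CPM filter (0.034), only the libraries compared (0.0055), and without neutral replicate 2 (0.033), acid replicate 1 (0.13) or acid replicate 3 (0.0070), in a range of -0.069 to 0.13. That of AL359955.1 turned without neutral replicate 2 (0.0080) or acid replicate 3 (0.050), in a range of -0.23 to 0.050. That of the fibroblast marker COL1A1 ran from -3.32 without neutral replicate 1 to 0.62 without neutral replicate 2. Genes under about 1 CPM, such as CA7, ATOH1 and TNF in one of the groups, rest on few counts.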
